A study of Mus musculus with 4 samples.

Results

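The neuron population that the authors named M25.Ghrh was described here in single-nucleus RNA sequencing of the mouse mediobasal hypothalamus. Its members are the nuclei that the deposited annotation assigns to M25.Ghrh, and there were 253 of them among 23261 neurons and 36523 annotated nuclei. They made up 1.09% of the neurons and ranked 31st in size among 37 neuron populations. All mice were wild type and ate chow without restriction. They received saline or insulin before the mediobasal hypothalamus was dissected, nuclei were cleaned by sorting and poly(A) RNA was counted from its 3′ end with the 10x platform. There were 2 Saline and 2 Insulin libraries. The labels give no strain, age, sex, dose, route or time after treatment. They do not say how many mice entered a library, and every p-value below rests on the spread between 4 libraries, which may be technical.

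Neurons that make growth hormone-releasing hormone (GHRH) lie mainly in the arcuate nucleus and release the peptide into the portal vessels of the median eminence, where it drives growth hormone (GH) secretion from the pituitary. Somatostatin opposes GHRH at the pituitary, ghrelin acts through the receptor Ghsr to promote GH release, and GH and insulin-like growth factor 1 (IGF1) feed back on the hypothalamus. Many GHRH neurons are known to be GABAergic and to make further transmitters and peptides, among them galanin, acetylcholine and the dopamine-synthesising enzyme tyrosine hydroxylase.

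The promoter of Ghrh is shown because this gene gave the population its name. The gene (ENSMUSG00000027643) lies on chromosome 2 from 157329497 to 157347506 on the minus strand of GRCm38. RefSeq lists a downstream and an upstream start site, and the 250 bases before each are given 5′ to 3′ on the minus strand (RefSeq, GRCm38.p6). Capitals mark TAATTA, a palindromic core bound by many homeodomain proteins, a class that includes Gsx1 and the Dlx factors described below.

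Ghrh downstream start, chr2:157337427-157337676: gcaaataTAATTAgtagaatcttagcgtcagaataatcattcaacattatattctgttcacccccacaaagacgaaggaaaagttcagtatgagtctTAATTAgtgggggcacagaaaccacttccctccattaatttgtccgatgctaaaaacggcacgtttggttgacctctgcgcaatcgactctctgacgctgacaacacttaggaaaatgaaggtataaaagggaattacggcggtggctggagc

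Ghrh upstream start, chr2:157346656-157346905: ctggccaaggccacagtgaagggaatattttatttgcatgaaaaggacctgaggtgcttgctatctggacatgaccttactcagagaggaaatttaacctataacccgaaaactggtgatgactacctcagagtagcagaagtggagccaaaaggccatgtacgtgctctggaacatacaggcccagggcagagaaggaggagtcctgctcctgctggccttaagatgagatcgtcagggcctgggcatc

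The downstream window held 2 copies of TAATTA, which begin 243 and 153 bases before the start, and a TATAAA that begins 31 bases before it. The upstream window held 0 copies of TAATTA. Of 32851 RefSeq promoter windows of 250 bases, 4.84% held TAATTA at least once and 0.444% held 2 or more copies. The FOXO core GTAAACA, searched on both strands, was in 3.17% of those windows and in neither Ghrh window. A match describes the letters only, and 3′ counts do not tell which start was used.

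The M25.Ghrh nuclei numbered 81 in the Saline library of run 230 and 59 in that of run 232, and 45 and 68 in the Insulin libraries of run 230 and run 232. Their summed counts were 643952, 558771, 437639 and 454682 unique molecular identifiers (UMIs) in the same order, with medians of 6897 to 9209 UMIs per nucleus. A gene with 3 UMIs in a library is therefore at 4.66 to 6.85 CPM (a gene's UMIs scaled to the same total in every library), and levels near that are set by a few molecules. In the deposited table, both runs contain 1 library of either treatment. The Y-linked Uty gave 145 and 97 UMIs in the M25.Ghrh nuclei of run 230 and 0 in those of run 232, while Xist gave 1 and 0 UMIs in run 230 and 628 and 440 in run 232. Run and sex therefore coincide. Of the 253 nuclei, 249 are also in the authors' conserved cluster C3.Ghrh, that is 98.4% of the population and 92.6% of the 269 nuclei of that cluster. Of the 20 nuclei of C3.Ghrh outside M25.Ghrh, 13 belong to M15.Nts. Across libraries, 318 barcode sequences occurred more than once, and 1 M25.Ghrh nucleus carried such a barcode.

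Levels are given as CPM, scaled to the total UMIs of those nuclei in that library, and a gene is ranked by its mean over the 4 libraries among the 35 populations with at least 10 nuclei in every library. Since the authors formed the populations from these same profiles, the levels describe M25.Ghrh and were not tested. Over 16130 genes with a mean of at least 1 CPM over populations, M25.Ghrh had the highest level of all populations for 4.31% and the lowest for 4.02%. It was among the 5 highest for 20.7% and among the 5 lowest for 19.9%. In only 0.279% of the genes, 45 in number, did each of its libraries lie above every library of every other population.

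Ghrh was highest in the population that bears its name, at 70.4 ± 52.7 CPM (SD, n = 4 libraries) against a mean of 2.82 CPM over the other populations, a 25-fold ratio. The levels were 24.8 and 25.1 CPM in the Saline and Insulin libraries of run 230 and 122 and 110 CPM in those of run 232. Both libraries of run 232 lay far above both of run 230, whereas the treatments overlapped. The next highest population, M1.GABA, had 16.1 ± 20.7 CPM (SD, n = 4 libraries). The highest library of any other population was at 43.3 CPM, above both M25.Ghrh libraries of run 230. The range over libraries overlapped that of M25.Ghrh in 2 populations. The transcript was sparse: 78 of 253 nuclei held a UMI (30.8%, 95% Wilson interval 25.5% to 36.8%), of which 42 held 1, 22 held 2 and 14 held 3 or more, up to 9. These intervals cover counting error only.

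M25.Ghrh nuclei held 145 Ghrh UMIs, 17.7% of those in annotated nuclei. The other neurons held 459 at 2.07 CPM, with a UMI in 1.73% of nuclei, and the non-neuronal cell types held 178 at 4.41 CPM, with a UMI in 1.40%. After each nucleus was thinned to 2000 UMIs, 11.1% of M25.Ghrh nuclei, 0.452% of other neurons and 0.889% of oligodendrocytes kept a Ghrh UMI. The last share comes from cells that should lack the gene. By library it was 0%, 2.33%, 0.181% and 0.80% (Saline run 230 and 232, Insulin run 230 and 232), against 0.145%, 0.801%, 0.224% and 0.67% in the other neurons and 2.50%, 18.6%, 4.44% and 19.1% in M25.Ghrh. M25.Ghrh was above both in every library, whereas the other neurons were above oligodendrocytes in run 230 and below them in run 232. Oligodendrocytes were shallower, with a median of 2752 UMIs before thinning against 7909.5 in M25.Ghrh nuclei and 8499 in the other neurons, and 1008 of them were left out for holding fewer than 2000.

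Transmitter genes. Chat, the acetylcholine-synthesising enzyme, was at 63.7 and 60.9 CPM in the Saline libraries and 59.4 and 50.6 CPM in the Insulin libraries of run 230 and run 232. Its mean of 58.6 ± 5.65 CPM was 32.1 times the mean of the other populations, the next being M14.GABA at 9.11 CPM. No library of another population reached any of these 4 values. Thinned to 2000 UMIs, 12.3% of M25.Ghrh nuclei kept a Chat UMI against 0.395% of other neurons and 0.0523% of oligodendrocytes. The vesicular acetylcholine transporter Slc18a3 lies inside the span of Chat on the same strand (chromosome 14, 32462438 to 32464850, within 32408203 to 32465989, GRCm38). It is listed at 0 in every population, so these counts give no separate level for this transporter. Whether any of its reads entered the Chat count was not tested. The choline transporter Slc5a7 had only 7 UMIs (3.69 CPM, the 5th highest level).

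The GABAergic genes Gad1 (75.9 CPM, ranked 15th), Gad2 (161 CPM, ranked 13th) and the vesicular GABA transporter Slc32a1 (36.4 CPM, ranked 15th) were in the middle of the order. The vesicular glutamate transporter Slc17a6 was at 11 CPM against 75.8 CPM in the others and ranked 29th. Th, encoding tyrosine hydroxylase, was the 4th highest at 21.1 CPM, below M31.Th at 66.8 CPM, and Ddc, the enzyme that completes dopamine synthesis, was the 5th highest at 60.2 CPM. The vesicular monoamine transporter Slc18a2 (18.3 CPM) ranked 16th, and the dopamine transporter Slc6a3 had 1 UMI. Of 13 transmitter genes above 1 CPM over populations, 1 was highest in M25.Ghrh and 5 were among the 5 highest, against 4.31% and 20.7% over all genes.

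Peptides and their processing. Gal, encoding galanin, was at 101, 233, 178 and 169 CPM in the Saline libraries of run 230 and 232 and the Insulin libraries of run 230 and 232. Its mean of 170 ± 54 CPM was second to M30.Gal at 211 CPM and 5.26 times the mean of the others. Galanin message was in 53 of the 78 nuclei with a Ghrh UMI (67.9%) and in 105 of the 175 without one, nuclei whose median depths were 8654.5 and 7543 UMIs. Chat was in 31 of the 78 (39.7%) and in 64 of the 175 (36.6%). These shares were not tested, since the nuclei with a Ghrh UMI were also deeper. Sst, encoding somatostatin, was at 40.5 CPM and ranked 19th. After thinning, a Sst UMI was in 7.94% of M25.Ghrh nuclei, 9.12% of other neurons and a larger share of oligodendrocytes, so it was at background. The same holds for Pomc, at 5.16% against 11.7%. Pcsk2, a prohormone convertase, had its lowest level of all populations here, at 46.6, 104, 66.3 and 77.0 CPM in that order of libraries against a mean of 553 CPM elsewhere. The other convertase Pcsk1 (24.9 CPM, ranked 14th) and the granule protein genes Chga, Chgb and Scg2 (ranked 30th, 28th and 15th) were not among the 5 lowest. Cadps2, which primes dense-core granules for release, was second at 914 CPM.

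GH axis and feedback. Ghr, the GH receptor, was at 1711, 1373, 1725 and 1608 CPM in the same order of libraries. All 4 values were above the mean of 373 CPM elsewhere, and only M26.Agrp had a higher mean, at 3089 CPM. After thinning, 84.1% of M25.Ghrh nuclei kept a Ghr UMI against 30.7% of other neurons and 5.02% of oligodendrocytes. Ghsr, the ghrelin receptor, was highest in M25.Ghrh at 12.4, 8.95, 4.57 and 17.6 CPM, but this mean of 10.9 CPM came from 23 UMIs and lay close to the 9.22 CPM of M26.Agrp, within the spread between libraries. Igf1r, the receptor for IGF1, was highest at 464 ± 77.8 CPM, against 432 CPM in M31.Th, from which it did not stand apart beyond that spread. Igf1 itself had 1 UMI, the lowest level, against 396 CPM in M3.Pmch.

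Somatostatin receptors were uneven. Sstr2 ranked 4th at 27 CPM, Sstr5 ranked 1st at only 3.89 CPM from 8 UMIs, and Sstr1 had 2 UMIs. The GHRH receptor Ghrhr had 0 UMIs in M25.Ghrh, which allows up to 1.43 CPM over the pooled libraries. In the JAK-STAT arm of GH signalling, Jak2 (36.2 CPM) and the feedback inhibitor Socs2 (11.8 CPM) both ranked 34th, while Stat5b (159 CPM) ranked 7th. Over the 14 genes of this list above 1 CPM over populations, 2 were highest and 1 lowest in M25.Ghrh, against 4.31% and 4.02% over all genes. The median log2 ratio to the other populations was −0.37, against −0.04 over all genes. Taken against the median of the other populations instead of their mean, it was 0.08, against 0.01 over all genes.

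**Figure D1:**
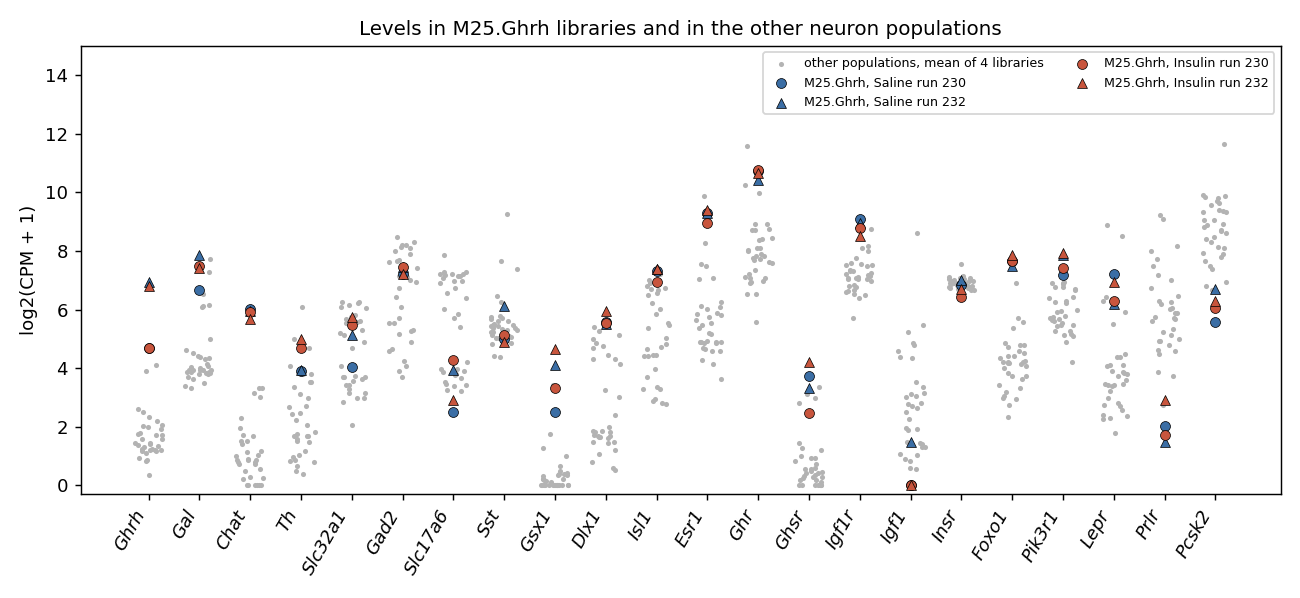
Levels of 22 genes on a log2(CPM + 1) axis in the 4 M25.Ghrh libraries (coloured; circles run 230, triangles run 232) and as means over 4 libraries in each other population (grey). Ghrh, Chat and Foxo1 stand above the grey points in the M25.Ghrh libraries, Ghrh is split by run, and Igf1, Prlr and Pcsk2 lie at or near the bottom.

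Identity factors. Gsx1, a homeobox factor known to be needed for GHRH neurons in mice, was highest in M25.Ghrh at 4.66, 16.1, 9.14 and 24.2 CPM (27 UMIs), 25.4 times the mean elsewhere, with M33.Glp1r/Ebf1 next at 9.72 CPM. Of the Dlx homeobox factors, which mark GABAergic lineages, Dlx1 (49.7 CPM) and Dlx6 (14.3 CPM) ranked 1st, and Dlx2 (13.4 CPM) and Dlx5 (10.8 CPM) ranked 2nd. Isl1, a factor of arcuate neuron identity, was at 154 CPM, level with M26.Agrp. Prox1 ranked 3rd at 126 CPM. Lef1, Sim1, Nr5a1 and Tcf7l2, factors of other hypothalamic lineages, had 1, 2, 1 and 6 UMIs. Gsx1 lies below 1 CPM over populations. Among the 31 factors above that level, 2 were highest and 8 among the 5 highest, against 4.31% and 20.7% over all genes. The median log2 ratio was −1.69 to the mean of the other populations (all genes −0.04) and −0.03 to their median (all genes 0.01).

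Of the 20 largest ratios to the other populations among genes of at least 20 CPM, 5 were predicted or unnamed genes, and all 20 were highest in M25.Ghrh. The leading gene was Mypn, encoding the sarcomere protein myopalladin, at 45, 59.1, 41.1 and 61.6 CPM, 34.1 times the mean elsewhere. After Chat, Moxd1 and Ghrh came the anion channel gene Best3 (63.4 CPM, 17.5-fold), the anthrax toxin receptor Antxr2, the splicing regulator Mbnl3, the collectin Colec12, Syndig1l, and the myosin kinase Mylk. Foxo1, Helb, Zar1 and Gpr179 followed, and then Pbx3, a TALE homeobox factor at 907, 932, 996 and 926 CPM, with a mean 8.08 times that elsewhere. In 10 of the 20, every M25.Ghrh library exceeded every library of the others, among them Mypn, Chat, Best3, Syndig1l, Foxo1, Helb and Pbx3. This did not hold for Mbnl3, Gpr179 and Colec12, for which M33.Glp1r/Ebf1 was the next population. It was at 118 CPM against 137 CPM in M25.Ghrh for Mbnl3, 98.0 against 111 CPM for Gpr179 and 41.3 against 65.2 CPM for Colec12. The promoters of 11 of these genes were in the RefSeq table, and among them only the downstream Ghrh window held TAATTA. Of the 10 smallest ratios, 7 belonged to named genes: Lncenc1, Ccbe1, Bcl11b, Igf1, Lef1, Adamts2 and Sim1, each with 0 to 2 UMIs. Most other populations were low for some of these genes too. The median of the others ran from 2.00 CPM for Lef1 to 17.4 CPM for Lncenc1. The range over libraries overlapped that of M25.Ghrh in 29 populations for Sim1, 28 for Lef1 and 19 for Igf1, but in 3 for Lncenc1.

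Insulin and leptin pathway. Insr, the insulin receptor, was at 115, 129, 84.5 and 103 CPM, a mean of 108 ± 18.7 CPM that ranked 29th and was 0.899 times the mean elsewhere. Downstream of it, 4 of 30 signalling genes above 1 CPM over populations had their highest level here, against 4.31% over all genes. Foxo1, a transcription factor that leaves the nucleus when insulin acts on a cell, was at 203, 179, 203 and 233 CPM, 9.51 times the mean elsewhere, and every one of these values exceeded every library of M26.Agrp, the next population at 120 CPM. Pik3r1, the regulatory subunit of PI 3-kinase, was at 198 CPM against 175 CPM in M3.Pmch, a gap within the spread between libraries. Akt2 (27.2 CPM) and Rptor (240 CPM) were also first, but with margins over the next population smaller than 1 CPM for Akt2 and within the spread between libraries for both. The adaptor Irs1 ranked 2nd at 66.1 CPM and Irs2 ranked 4th at 53.8 CPM. The leptin receptor Lepr was the 3rd highest at 105 CPM, against 473 CPM in M26.Agrp.

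Other receptors. Esr1, the oestrogen receptor, was at 626, 626, 494 and 680 CPM, second to M28.Tac2 at 952 CPM, and 67.9% of thinned M25.Ghrh nuclei kept a UMI against 9.19% of other neurons. The progesterone receptor Pgr was 3rd at 174 CPM. The neuropeptide Y receptor Npy5r was 2nd at 109 CPM and Npy1r 4th at 36.8 CPM. The melanocortin receptor Mc3r was 2nd at 6.03 CPM from 12 UMIs, while Mc4r had 0. The serotonin receptor Htr7 was 2nd at 214 CPM. Prlr, the prolactin receptor, was the lowest of all populations at 3.11, 1.79, 2.28 and 6.60 CPM, against 104 CPM elsewhere. The kappa-opioid receptor Oprk1, the histamine receptor Hrh1 and the nicotinic subunit Chrna7 were lowest as well. Of 21 monoamine, acetylcholine and cannabinoid receptors, 9 were among the 5 lowest and 2 among the 5 highest, against 19.9% and 20.7% over all genes.

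Channels. The potassium channel Kcnd2, which carries A-type current, was highest at 6768, 4957, 6665 and 5980 CPM, against 4980 CPM in M28.Tac2. The inward rectifiers Kcnj6 (391 CPM) and Kcnj9 (35.9 CPM) and the pacemaker channel Hcn4 (12 CPM) ranked 1st too. The KATP channel genes Kcnj11 (2 UMIs) and Abcc8 (10.2 CPM) ranked 31st and 32nd. Lowest of all populations were Kcnh7, Trpc5, Cacna1c, Scn3a and Hcn2. Of 42 channel genes above 1 CPM over populations, 5 were highest and 5 lowest. Among 36 GABA and glutamate receptor genes, Gabre (42.0 CPM) and Grid1 (1553 CPM) were highest, and Gabrb1, Grin3a, Grm7 and Grm8 were among the 5 that were lowest, the last at 18.9 CPM against 521 CPM elsewhere. Over all genes, 4.31% were highest and 4.02% lowest in M25.Ghrh. Grik1, a kainate receptor subunit, was 2nd at 1756 CPM, 5.80 times the mean of the others.

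**Figure D2:**
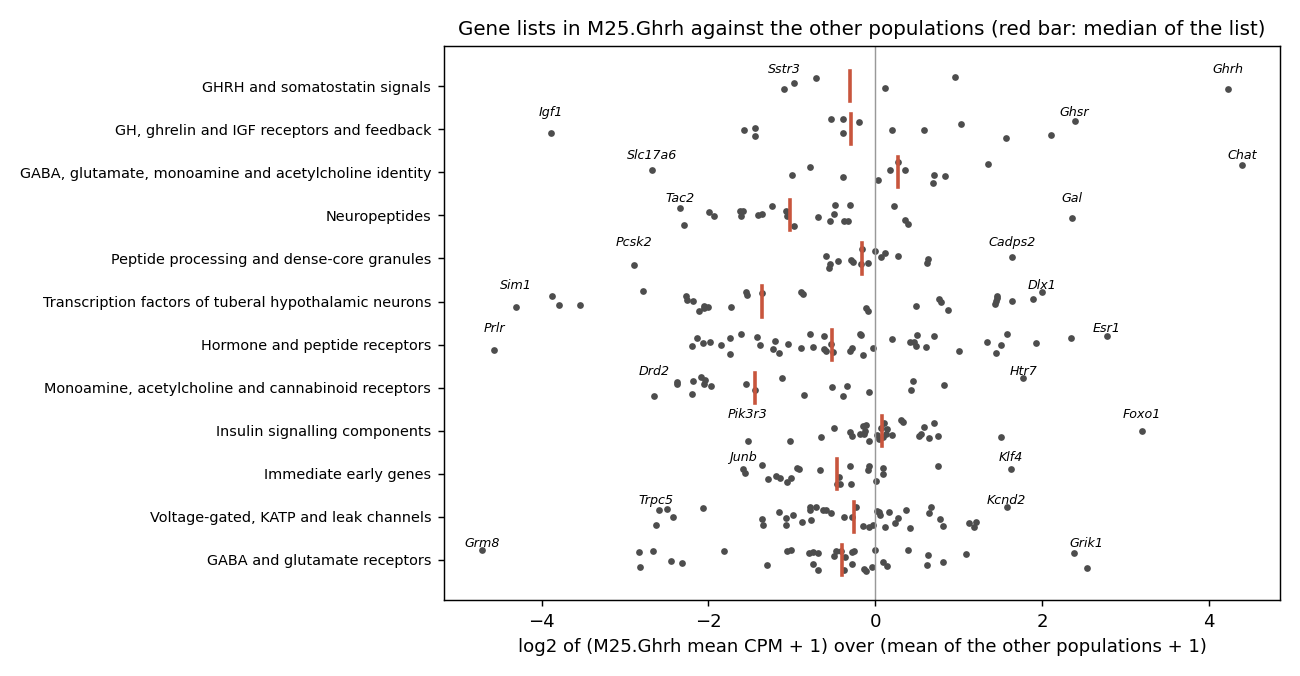
Each point is a gene above 1 CPM over populations, placed by the log2 ratio of its M25.Ghrh mean CPM + 1 to the mean of the other populations + 1, by gene list. The red bar is the median of a list, and the genes at both ends are named. Ghrh, Chat, Gal, Esr1 and Foxo1 are the right ends of their lists and Pcsk2, Prlr and Grm8 left ends.

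Markers of non-neuronal cell types were low. Astrocyte markers summed to 51.2 to 116 CPM in the 4 libraries of M25.Ghrh against 6858 CPM in astrocytes, and oligodendrocyte markers to 124 to 152 CPM against 12538 CPM. Endothelial markers summed to 3.11 to 8.80 CPM, with Cldn5 and Slco1a4 at 0, and mural markers to 1.79 to 4.66 CPM, with Rgs5, Kcnj8 and Myh11 at 0. Agrp, which marks the neighbouring AgRP neurons, was at 84.7 CPM and ranked 28th, and after thinning 17.9% of M25.Ghrh nuclei, 19.1% of the other neurons and 7.21% of oligodendrocytes held a UMI of it. By whole profile, the most alike population was M15.Nts (Pearson r of log2 CPM 0.950 over 16130 genes), followed by M34.Esr1/Npy1r (0.942) and M33.Glp1r/Ebf1 (0.942). These correlations are across genes, which are not independent, and the populations share libraries.

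The next question was whether insulin changed gene expression in these neurons. With edgeR's quasi-likelihood test and Benjamini-Hochberg adjustment, 0 of 7944 genes passed an adjusted p of 0.05 (0.0%). An unadjusted p under 0.05 was found for 211, against 397 expected by chance. DESeq2 also called 0, with 35 at that unadjusted level, and limma-voom called 0, with 174. The smallest adjusted p by edgeR was 1.00. Both Insulin libraries lay above both Saline libraries for 14.5% of the genes and below them for 15.9%. With the run as a block, 0 genes were called and 469 had an unadjusted p under 0.05. Leaving out the Saline library of run 230 or run 232 gave 12 or 87 calls, and leaving out the Insulin library of run 230 or run 232 gave 0 or 1. These sums of 45 to 81 nuclei per library limit what could be detected.

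Among genes whose groups did not overlap, leaving out predicted genes such as Gm32647, the smallest p-values for higher levels belonged to Cntnap5b, Il1rapl2, Dpp10, Cntnap5a and Gpc6. The last is a glypican, Cntnap5a and Cntnap5b are cell-adhesion proteins of the contactin-associated family, and Dpp10 is an auxiliary subunit of A-type potassium channels. Gpc6 was at 618 and 818 CPM in the Saline and 1515 and 1093 CPM in the Insulin libraries of run 230 and run 232, a log2 difference of 0.87 (SE 0.22). For lower levels these were the adhesion molecule Alcam, Lrriq1, the transcription factor Maf, the kinase Sgk3 and the aldose reductase Akr1b3. Maf was at 65.2 and 84.1 CPM against 34.3 and 33.0 CPM, a log2 difference of −1.13 (SE 0.31). None of these passed the adjusted threshold in M25.Ghrh alone.

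For genes of the GH axis, the log2 difference was −0.07 (SE 0.70) for Ghrh, 0.09 (SE 0.33) for Gal, 0.11 (SE 0.19) for Ghr and −0.36 (SE 0.20) for Igf1r. Of the list of GH, ghrelin and IGF receptors and feedback genes 5 were tested, with a median log2 difference of −0.36, and 3 of them, including Igf1r, had both Insulin libraries below both Saline libraries, as did 15.9% of all genes. Of 32 insulin signalling components, 24 were tested, with a median log2 difference of 0.03 against 0.00 over all genes. Both Insulin libraries were above both Saline libraries for 5 of the 24 and below for 4, against 14.5% and 15.9% of all genes. Insr was at −0.37 (SE 0.24), Irs2 at 0.62 (SE 0.31) and Foxo1 at 0.19 (SE 0.21). None passed the test.

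Whether M25.Ghrh differed from other neurons in its response was tested as an interaction of treatment and population. Against the sum of all other neurons, 12 of 18845 genes passed (0.0637%), 9 with a higher (0.0478%) and 3 with a lower (0.0159%) Insulin minus Saline difference in M25.Ghrh. Both M25.Ghrh Insulin libraries lay above both Saline libraries, relative to the other neurons, for 19.7% of the genes and below for 14.7%. The limma-voom fit with a separate weight for each population called 0 (1019 at an unadjusted p under 0.05). The edgeR fit gives each gene 1 dispersion for both kinds of sum, and the weighted fit a spread for each. Leaving out a library left 5 to 25 calls, the lowest without the Insulin library of run 230, of which 2 were among the 12.

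Gpr149, an orphan receptor, had 2 and 5 UMIs in the Saline and 10 and 22 UMIs in the Insulin libraries of run 230 and run 232, and the interaction was 2.87 (log2, SE 0.52, adjusted p = 0.000252 by edgeR). In the Insulin library of run 232, 1 nucleus held 13 of those 22 UMIs. Il1rapl2, an accessory protein of the interleukin-1 receptor family, had 126, 120, 237 and 166 UMIs, of which 1 nucleus of the Insulin library of run 230 held 60. Adarb2, related to RNA-editing enzymes, had 140 UMIs in that library, 51 of them in 1 nucleus, and 62 in the other Insulin library against 68 and 83 in the Saline libraries. Its levels in M25.Ghrh therefore overlapped between treatments. The predicted gene Gm32647 had the smallest p, with 9 and 16 UMIs in the Saline and 103 and 23 in the Insulin libraries, and 9 of 45 nuclei held those 103, up to 39 each.

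Cntnap5a and Gpc6 were spread over more nuclei. Cntnap5a was counted in 57 of 81 and 49 of 59 Saline nuclei and in 37 of 45 and 62 of 68 Insulin nuclei. Its levels were 269 and 356 CPM against 571 and 530 CPM, with an interaction of 0.77 (SE 0.17, adjusted p = 0.0249 by edgeR). Cntnap5b was at 113 and 141 CPM against 258 and 262 CPM, with an interaction of 1.01 (SE 0.20). Dpp10 was at 121 and 134 CPM against 297 and 220 CPM, and its interaction was 1.04 (SE 0.20). In the Insulin library of run 232, 1 nucleus held 31 of its 100 UMIs. Gpc6 had an interaction of 0.84 (SE 0.16). In the other neurons these 4 genes had log2 differences of −0.04 to 0.04, but in M26.Agrp Cntnap5a was at 0.55 (SE 0.24) and Cntnap5b at 0.87 (SE 0.28). Fgf1, the acidic fibroblast growth factor, was at −0.31 (SE 0.32) in the other neurons and at 0.71 (SE 0.43) in M25.Ghrh. Its treatments overlapped in both. The 3 with lower differences were Prex2 (30 and 49 against 14 and 8 UMIs), Klhl1 (20 and 29 against 5 and 7) and Adamtsl1 (9 and 17 against 0 and 3). In the Saline library of run 232, 1 nucleus held 12 of the 29 Klhl1 UMIs and 1 nucleus held 11 of the 17 Adamtsl1 UMIs.

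**Figure D3:**
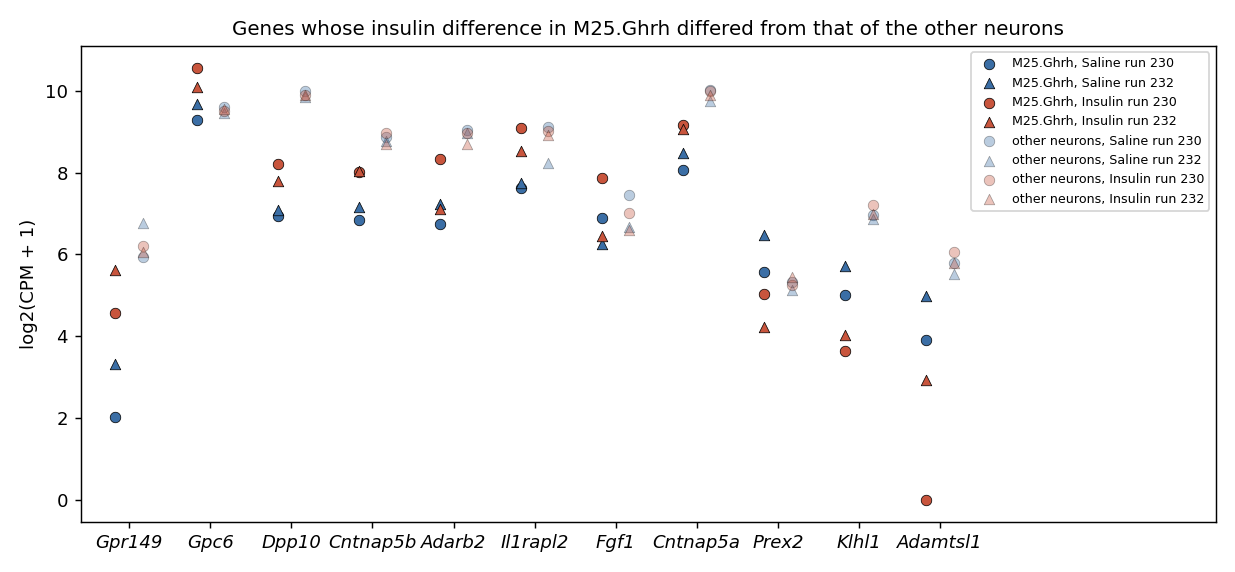
Levels on a log2(CPM + 1) axis of the 11 named genes whose insulin difference in M25.Ghrh differed from that of the other neurons by edgeR, by library (blue Saline, red Insulin; circles run 230, triangles run 232; faded symbols other neurons). In M25.Ghrh, Gpc6, Dpp10, Cntnap5a and Cntnap5b have both Insulin symbols above both Saline symbols, and Adarb2 and Fgf1 do not.

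Against M26.Agrp, the AgRP neurons, 0 of 10370 genes passed with edgeR (0.0%). An unadjusted p under 0.05 was found for 500, against 518 expected by chance. The smallest adjusted p was 0.343, for Fgf1, which was at −0.75 in M26.Agrp. Without a library, between 0 and 19 genes were called, the most without the Insulin library of run 232. The difference between M25.Ghrh and M26.Agrp was 0.19 (SE 0.30) for Cntnap5b and 0.30 (SE 0.25) for Cntnap5a, and neither passed.

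Immediate early genes, which neurons transcribe within minutes of activation, summed to 146 and 213 CPM in the Saline and to 151 and 304 CPM in the Insulin libraries of run 230 and run 232. The Insulin minus Saline difference in M25.Ghrh was 4.84 CPM in run 230 and 90.5 CPM in run 232, so the treatments overlapped across runs. In M26.Agrp it was 383 and 289 CPM and in the other neurons 55.7 and 111 CPM. Fos had 0 and 0 UMIs in the Saline and 1 and 5 UMIs in the Insulin libraries, too few to read a change. Gem, a small GTPase induced by activity, had 13, 31, 14 and 22 UMIs, a log2 difference of 0.13 (SE 0.48) against 1.08 in the other neurons. The test of that difference gave −0.96, with an unadjusted p of 0.0163 that did not pass adjustment. Of 25 immediate early genes tested for an interaction with the other neurons, 0 passed and 11 lay above 0, with a median of −0.09 against −0.03 over all genes.

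**Figure D4:**
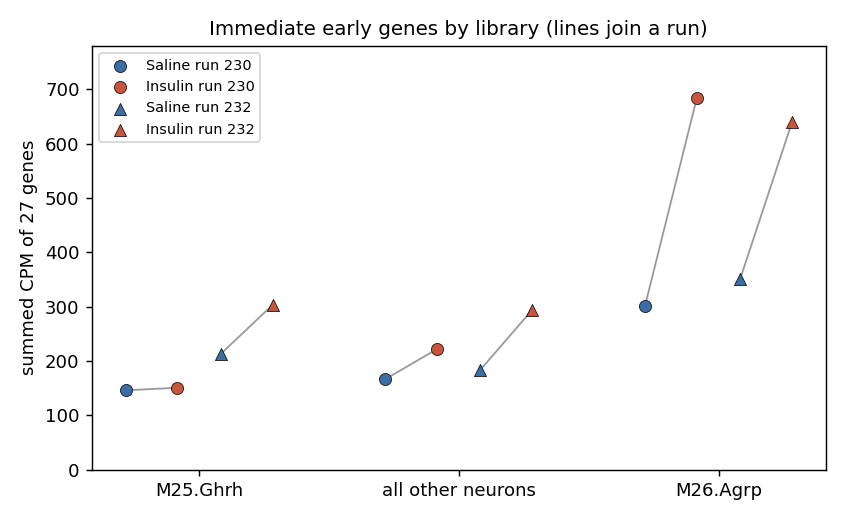
Summed CPM of 27 immediate early genes by library in M25.Ghrh, all other neurons and M26.Agrp (blue Saline, red Insulin; circles run 230, triangles run 232; lines join the libraries of a run). The Insulin symbols of M26.Agrp lie at 685 and 641 CPM, and those of M25.Ghrh at 151 and 304 CPM.

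The share of M25.Ghrh nuclei among neurons was 1.27% and 1.11% in the Saline libraries of run 230 and run 232 and 0.827% and 1.11% in the Insulin libraries. The difference of the means was −0.222 percentage points, with an exact two-sided permutation p of 0.667. With 2 against 2 libraries this test cannot go below 0.333. Within run 230 the difference was −0.446 points and within run 232 it was 0.00243 points.

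Between the runs, more genes passed the test in M25.Ghrh than between treatments. With the treatment as a covariate, 64 of 7944 genes passed (0.806%), 31 higher (0.39%) and 33 lower (0.415%) in run 232, and 16 of the 64 were predicted genes. DESeq2 called 6 of these 64, and edgeR without a filter on low counts called 258. Without the treatment covariate 43 genes were called, and in that fit the count was 408 without the Insulin library of run 230, 105 without the Saline library of run 230, 81 without the Saline library of run 232 and 94 without the Insulin library of run 232. Among the 20 with the smallest p were Xist and Tsix, higher in run 232, and the Y-linked Uty, Eif2s3y, Kdm5d and Ddx3y, lower. Of the 64, 48 were also called in the same direction in the other neurons, where 7.89% of 20257 genes passed. Run and sex cannot be told apart, and neither can any other feature of the runs.

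Ghrh itself was among the 64. Its counts were 16 and 11 UMIs in run 230 and 68 and 50 UMIs in run 232 (Saline, then Insulin), and it was counted in 12 of 81 and 8 of 45 nuclei against 29 of 59 and 29 of 68. The log2 difference was 2.16 (SE 0.29, adjusted p = 0.00481 by edgeR), and DESeq2 gave an adjusted p of 0.227. In the other neurons the difference was 2.33, and the test of M25.Ghrh against them gave −0.14 (adjusted p = 1.00). Summed over all non-neuronal cell types, Ghrh was at 1.35 and 1.57 CPM in run 230 and 7.27 and 6.19 CPM in run 232. In astrocytes, oligodendrocytes, their precursors and mural cells, both libraries of run 230 lay below both of run 232. In endothelial, ependymal and microglial nuclei the runs overlapped. The share of M25.Ghrh UMIs from ribosomal protein genes was also lower in run 230 (0.207% and 0.252%) than in run 232 (0.361% and 0.347%). Its part in the result was not tested. The ribosomal protein gene Rps29 was at 3.70. The histone gene H3f3b (1.40), the RNA-binding Sltm (1.14) and the spindle gene Spag5 (3.29) were higher in run 232 too, as they were in the other neurons. Gal differed by 0.53 (SE 0.26, adjusted p = 0.433), and Foxo1 by −0.05.

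By edgeR, a few genes differed between runs in M25.Ghrh beyond the other neurons. Of 18845 genes, 32 passed that interaction, 17 higher and 15 lower, and 10 of the 64 genes above were among them. Here too each gene has 1 dispersion for both kinds of sum. The fit with a weight per population, which called none of the insulin interactions, was not run for the runs. Luzp2, which encodes a leucine zipper protein (chromosome 7, 54835498 to 55268885, plus strand), was at 48.1 and 34.3 CPM in run 230 and 166 and 238 CPM in run 232, while the other neurons were at 480 and 450 CPM and at 441 and 430 CPM. The 2 runs did not overlap in M25.Ghrh, and the interaction was 2.36 (adjusted p = 7.01e-18 by edgeR). It was counted in 15 of 81 and 6 of 45 nuclei of run 230 and in 29 of 59 and 28 of 68 nuclei of run 232. The adhesion molecule Opcml (−0.73), Pld5 (−0.72), Egfem1 (−1.16) and the scaffold Magi3 (−1.25) had negative interactions. Magi3 was at 174 and 171 CPM in run 230 and 60.8 and 72.6 CPM in run 232. Of the 91 Egfem1 UMIs in the Insulin library of run 230, 51 came from 1 nucleus.

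**Figure D5:**
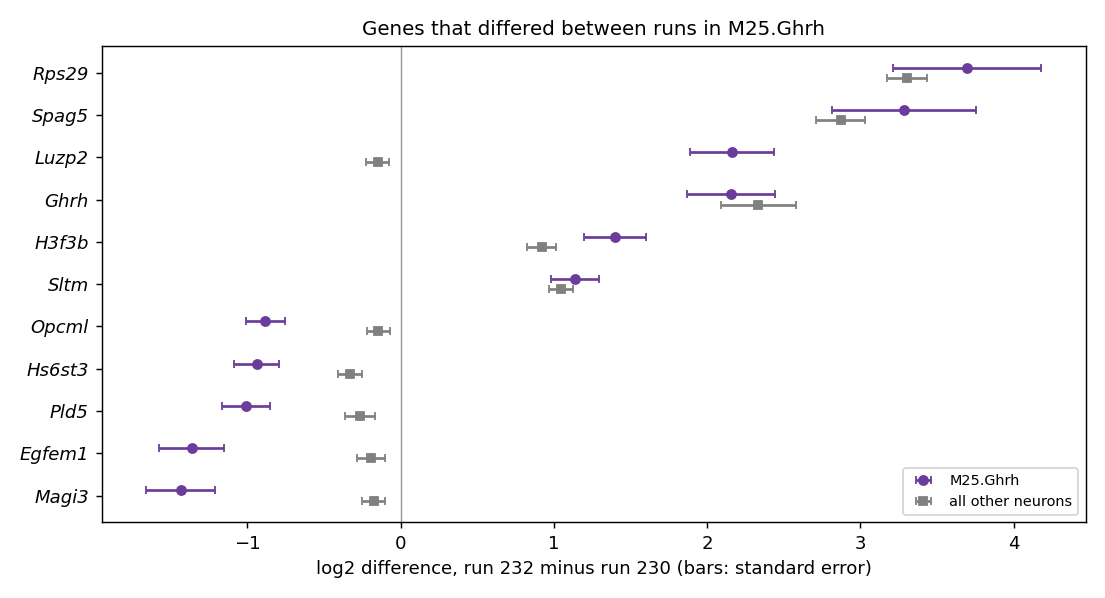
Log2 difference of run 232 from run 230, with its standard error, in M25.Ghrh (purple circles) and in all other neurons (grey squares), for named genes among those with the smallest p, leaving out the sex-linked ones. Ghrh differs by about as much in both, while Luzp2, Opcml, Pld5, Egfem1 and Magi3 lie apart.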

How the data were processed

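The authors made UMI counts per gene and nucleus with Cell Ranger on the GRCm38 build (both named in the submitters' processing notes, without versions) and deposited 1 matrix (41156 barcodes, 31053 gene symbols) with a table of library, run, treatment and population for 36534 nuclei. Of these, 11 had no matching barcode, and 4633 barcodes had no annotation. Aligner version, gene annotation and doublet handling beyond the authors' calls are not given in the sources used here. Library names carry no title or replicate number from the labels, so each library was given its group by the treatment in that table and is named by treatment and run.

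Raw counts were summed over nuclei per library. Contrasts used edgeR 4.0.16 in R 4.3.3 (TMM, filterByExpr with minimum count 10 and minimum total 15, quasi-likelihood test, Benjamini-Hochberg adjustment, threshold 0.05), with DESeq2 1.42.0 and limma 3.58.1 as alternatives. The scripts were tested on simulated data. Libraries of a run deviated together over M25.Ghrh genes (correlation 0.351, or 0.290 without sex-linked genes), from 2 pairs, so the run was also fitted as a replicate block. Named genes were the list members with extreme ranks, the 20 largest and 10 smallest ratios among genes of at least 20 CPM, and per contrast the called genes up to 20 by p, or else the 5 with the smallest p in each direction, without predicted genes and among genes whose groups do not overlap. The population and the 20 gene lists were chosen with earlier results of these data known. Some items are not reported here.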

Additional observations from a re-analysis of the deposited data

Results flagged for a closer look

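For 12 genes, the difference between Insulin and Saline in M25.Ghrh departed from that of the other neurons by edgeR's interaction test. On the log2 scale these departures were 2.54 for Gm32647, 2.87 for Gpr149, 0.84 for Gpc6, 1.04 for Dpp10, 1.01 for Cntnap5b, 0.97 for Adarb2, 0.84 for Il1rapl2, 0.96 for Fgf1 and 0.77 for Cntnap5a. They were −1.55 for Prex2, −1.79 for Klhl1 and −2.95 for Adamtsl1. The limma-voom fit with a weight per population called 0 of them.

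Among the named genes that differed between runs in M25.Ghrh, the test against the run difference of the other neurons passed for 5 by edgeR: 2.36 for Luzp2, −0.73 for Opcml, −0.72 for Pld5, −1.16 for Egfem1 and −1.25 for Magi3. No fit with a weight per population was run for the runs.

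The barcodes that the authors left without annotation held 127 Ghrh UMIs in 97 of 4633 barcodes, up to 11 in 1 barcode, a level of 3.42 CPM. These barcodes entered no comparison.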

How the results depend on the processing

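The count of genes changed by insulin in M25.Ghrh was 0 by edgeR and stayed 0 with RLE scaling, DESeq2, limma-voom, the replicate block, nuclei with a Ghrh UMI (3621 genes tested) and the C3.Ghrh nuclei. It was 4 without a filter on low counts and 0 to 87 when a library was left out: 12 without the Saline library of run 230, 87 without that of run 232, 1 without the Insulin library of run 232. The cause was not tested. In these fits the lone library of a treatment is assumed to vary like the others. For the run difference (64 genes), RLE scaling gave 116, no filter 258, DESeq2 6, and the difference from the other neurons 32. With no covariate 43 were called, and leaving out a library from that fit gave 81 to 408, the most without the Insulin library of run 230 and 105 without the Saline library of run 230. Against the run difference of the other neurons, the sign reversed for Xist (−1.92), Tsix (−3.13), Ghrh (−0.14) and Gm35996 (−0.46), since that alternative measures a difference of differences. The 12 genes that departed from the other neurons became 0 with a weight per population and 5 to 25 without a library, with 2 of the 12 among the 5 and 7 among the 25. Against M26.Agrp, 0 became 6 without a filter, and 4, 7, 19 or 0 without a library. The share difference of −0.222 points reversed within run 232 (0.00243 points, pairing by run) and ranged from −0.363 to −0.0799 without a library. A Ghrh UMI was in 11.1% of nuclei at 2000 UMIs, 21.3% at 4000 and 30.8% without thinning. The replicate numbers of the labels could not be tied to libraries, so pairing rests on the run; the block changed no call. Genes highest in M25.Ghrh numbered 656 to 732 over the alternatives, against 696. Detection is limited by the 437639 to 643952 UMIs per library. The C3.Ghrh nuclei, limma-voom for the run, the weight per population, the run difference of the other neurons and the left-out libraries for the run were alternatives chosen after seeing the data.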
